A study of Sus scrofa with 25 samples.

Results

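Slow-rich and fast-rich libraries are 16 of the 25 muscle libraries of a pig feeding study, chosen by the ratio of slow to fast troponin transcripts whatever the diet. In each library the counts of the slow troponin genes TNNI1, TNNC1 and TNNT1 were summed and divided by the summed counts of the fast troponin genes TNNI2, TNNC2 and TNNT3. The 8 libraries with the highest ratio are called slow-rich and the 8 with the lowest fast-rich. Of the 24 libraries ranked, the other 8 form a middle group, and the library of animal 27 (D10000) was left out of the ranking. The pigs, crosses of Landrace boars with Polish Large White sows, received feed with 5000 IU/kg vitamin D3 (D5000), 10000 IU/kg (D10000) or 0 IU/kg (control) for 90 days from day 85 of life, in feeds otherwise alike. Litters were divided among the diets, and the litter, the sex and the muscle of each pig are not given in the sources used here. Slow-rich libraries came from 2 D5000, 3 D10000 and 3 control pigs and fast-rich libraries from 2 D5000, 2 D10000 and 4 control pigs.

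Skeletal muscle is a mosaic of slow-twitch fibres, which contract slowly, resist fatigue and burn fat and sugar in many mitochondria, and fast-twitch fibres, which contract quickly and lean more on glycolysis and glycogen. Both classes build the same sarcomere from different isoforms of myosin, troponin and calcium pumps, so that transcripts of slow and fast isoforms tell the classes apart. Pig muscles differ widely in the share of slow fibres, between muscles and between regions of 1 muscle. Libraries here hold RNA of whole tissue, so a difference in the share of slow fibres and a difference in transcripts per fibre cannot be told apart.

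The measured troponin ratio that selected the libraries ran from 0.0987 to 1.53 in slow-rich libraries (median 0.178) and from 0.0348 to 0.0735 in fast-rich libraries (median 0.0499). D5000 replicate 24 stood apart at 1.53, ahead of D10000 replicate 13 at 0.367, control replicate 16 at 0.289 and control replicate 17 at 0.212. D10000 replicate 21 was the last library inside the slow-rich group at 0.0987, and D10000 replicate 20 the first outside at 0.0922. At the other end D5000 replicate 18 was the last inside the fast-rich group at 0.0735, and D10000 replicate 1 the first outside at 0.0754. The groups are therefore stretches of a continuous range, and the 8 middle libraries spanned 0.29 of the 5.46 log2 units between the extremes. The slow troponins carried most of the split. TNNT1 had a median of 1588 CPM (a gene's counts scaled to the total gene counts of its library) in slow-rich and 408 CPM in fast-rich libraries, and the fast troponin TNNT3 8976 CPM in slow-rich and 10116 CPM in fast-rich libraries, with overlapping ranges (3360 to 11287 CPM against 4845 to 20116 CPM). These values describe the selection, and the 6 troponin genes stayed out of every test of single genes.

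**Figure D1:**
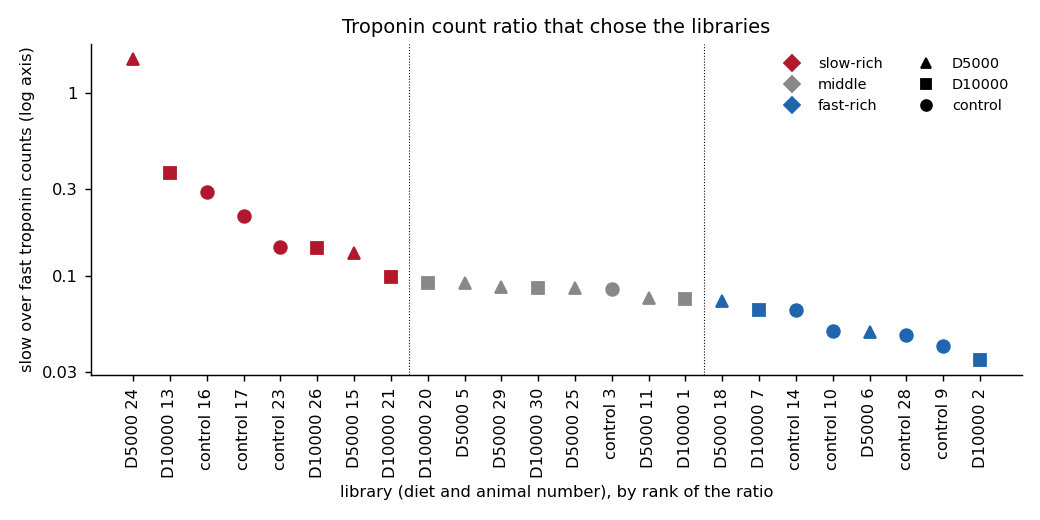
Ratio of slow to fast troponin counts (log axis) in the 24 ranked libraries, from the highest on the left to the lowest on the right. Colour gives the group and shape the diet, and dotted lines mark the borders of the groups. D5000 replicate 24 at 1.53 stands apart from the other slow-rich libraries, and each diet occurs in every group.

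The diets did not separate by this ratio beyond the spread between pigs. Over the 24 ranked libraries the log2 ratio averaged -3.08 ± 1.54 in D5000 pigs, -3.38 ± 0.97 in D10000 pigs and -3.45 ± 1.06 in control pigs (SD, n = 8 each). The adjusted p was 0.898 for each of the 3 pairs of diets (two-sided exact permutation test, Benjamini-Hochberg over 3 pairs). The counts of the diets in the slow-rich and fast-rich groups gave p = 1 (Fisher's exact test).

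The label of the tissue held in all 16 libraries. The skeletal actin gene ACTA1 reached 54282 to 209670 CPM in slow-rich and 54043 to 213890 CPM in fast-rich libraries. The muscle creatine kinase CKM reached 9838 to 20532 CPM in slow-rich and 2731 to 20003 CPM in fast-rich libraries. Markers of other tissues were present too: albumin (ALB) stood at 2082 to 9815 CPM in slow-rich and 1553 to 18158 CPM in fast-rich libraries, while the tendon factor SCX was at 0 in all 16 and leptin (LEP) at 0 in 15 of 16. Depth moved with the groups. Total gene counts per library averaged 9986454 ± 3030377 in slow-rich and 6461174 ± 1976694 in fast-rich libraries (SD, n = 8 each, exact permutation p = 0.0146, adjusted p = 0.129 over 13 library measures). The share of reads assigned to genes (the assigned share) was 58.3% ± 8.19 in slow-rich and 47.8% ± 15.8 in fast-rich libraries (SD, n = 8 each, exact permutation p = 0.122, adjusted p = 0.396), and the 3 ranked libraries under 40% (D5000 replicate 18, D10000 replicate 7 and D10000 replicate 2) were fast-rich. The main values are therefore also given without these 3 libraries, or with the total gene counts or the assigned share as a covariate, since many differences were smaller in those fits. The part of depth and of the assigned share in the results was not tested further.

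**Figure D2:**
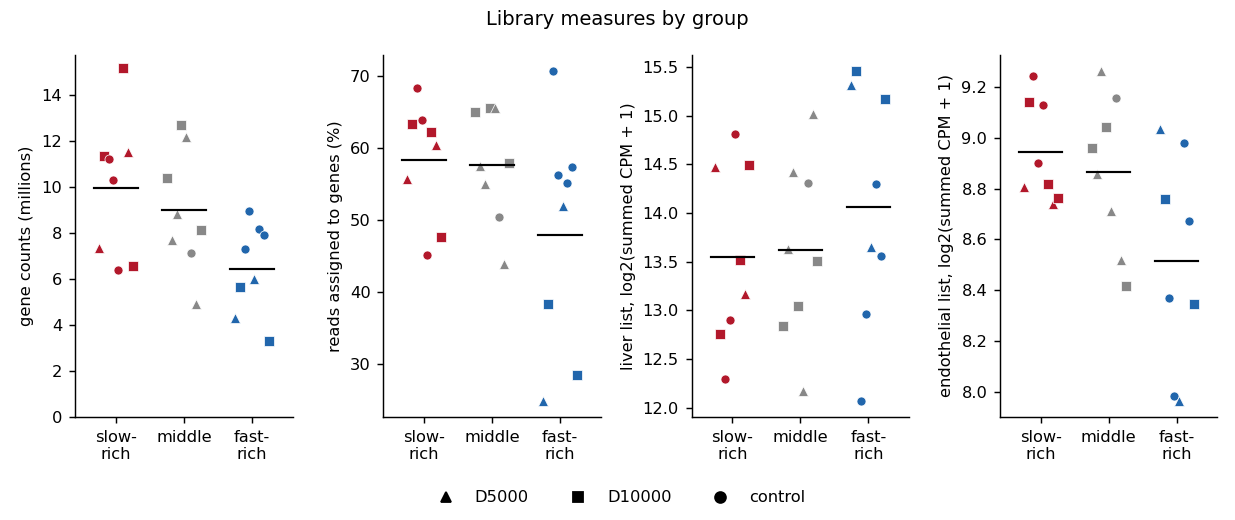
Measures of the 24 ranked libraries by group: total gene counts, the percent of reads assigned to genes, and the summed CPM of the liver and endothelial lists as log2(summed CPM + 1). Points are libraries, shapes diets and black lines group means. Mean gene counts were 9986454 in slow-rich and 6461174 in fast-rich libraries, and the lowest shares of assigned reads lie in the fast-rich group.

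Genes of slow fibres other than the troponins were higher in slow-rich libraries, the M-band gene MYOM3 most firmly, while genes of fast fibres stood about level. Of 10123 genes tested, 1 passed an adjusted p of 0.05 as higher (0.00988% of the genes tested) and 0 as lower in edgeR's quasi-likelihood test. At an unadjusted p under 0.05, 243 genes were higher (2.4%) and 440 lower (4.35%). These 2 shares are the background for the counts of list members at that p given below. DESeq2 called 9 higher and 4 lower, and limma voom 0 in either direction. Since the libraries were selected on a measured ratio, a p here says how closely a gene followed the troponin ratio and is no test of a treatment. The spread between pigs was wide, with a median SE of 0.40 on the log2 scale over all genes, and LMOD2 at a log2 fold change of 2.58 did not pass the threshold, so differences well above 1 SE could go uncalled.

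MYOM3 (ENSSSCG00000036534) encodes a myomesin that links thick filaments at the M-band. It had 17.5, 44.1 and 138 CPM (lowest, median and highest of 8 libraries, the form used for all genes that follow) in slow-rich libraries, against 6.65, 9.91 and 18.5 CPM in fast-rich libraries. Its values overlapped only in D10000 replicate 21 and D5000 replicate 15 (18.3 and 17.5 CPM), which lay just under the highest fast-rich library, control replicate 28 (18.5 CPM). The log2 fold change was 2.46 ± 0.42 (SE, n = 8 each, edgeR adjusted p = 0.0402), a 5.51-fold difference. The call did not hold when any of 11 of the 16 libraries was left out (adjusted p up to 0.158), and the fold change was then between 2.21 and 2.61. MYOM3 stood at 2.16 (adjusted p = 0.271) with adjustment for the assigned share, at 2.15 (adjusted p = 1) with total gene counts, and at 2.18 (adjusted p = 0.679) without the 3 libraries of low assigned share. LMOD2 (ENSSSCG00000016605), leiomodin 2, which elongates actin filaments in striated muscle, had 73.0, 425 and 797 CPM in slow-rich libraries, against 27.2, 67.2 and 125 CPM in fast-rich libraries. D5000 replicate 24, control replicate 16, D10000 replicate 13 and control replicate 17, the 4 libraries with the highest troponin ratio, had at least 606 CPM of LMOD2, and 6 of 8 slow-rich libraries lay above every fast-rich one. Its log2 fold change was 2.58 ± 0.50 (adjusted p = 0.080).

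The list of slow-fibre genes held 20 symbols besides the troponins, 13 of which had an identifier and 11 enough counts to be tested. All 11 were higher in slow-rich libraries, with a median log2 fold change of 1.47, against 48.1% of all genes tested and a median of -0.03 over them. At an unadjusted p under 0.05, 7 of the 11 were higher and 0 lower, against 2.4% and 4.35% of all genes tested. The list was chosen with earlier results of these data known, and the libraries by their troponins, so these counts are a description only. ATP2A2 (ENSSSCG00000034386), the SERCA2 calcium pump that refills the sarcoplasmic reticulum of slow fibres, had 143, 268 and 639 CPM in slow-rich libraries, against 76.4, 102 and 193 CPM in fast-rich libraries (log2 fold change 1.45 ± 0.35). MYBPC1 (ENSSSCG00000000866), slow myosin-binding protein C, had 279, 516 and 1178 CPM in slow-rich libraries, against 94.2, 218 and 329 CPM in fast-rich libraries (1.47 ± 0.38). For MYBPC1, 7 of 8 slow-rich libraries lay above every fast-rich one, the exception being D5000 replicate 15. MYL2 (ENSSSCG00000039710), the regulatory myosin light chain of slow fibres and ventricle, had 1657, 2615 and 6839 CPM in slow-rich libraries, against 358, 684 and 2445 CPM in fast-rich libraries (1.31 ± 0.52).

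PDLIM1 (ENSSSCG00000010493), an adaptor of alpha-actinin at the Z-disc and stress fibres, had 46.2, 94.6 and 274 CPM in slow-rich libraries, against 10.9, 41.1 and 66.1 CPM in fast-rich libraries (log2 fold change 1.51 ± 0.43). ANKRD2 (ENSSSCG00000010522), a stretch-responsive ankyrin repeat protein, had 17.3, 65.9 and 414 CPM in slow-rich libraries, against 0.604, 17.5 and 75.7 CPM in fast-rich libraries (2.17 ± 0.79). Only D10000 replicate 13, control replicate 16 and D5000 replicate 24 exceeded every fast-rich library in ANKRD2. CSRP3, muscle LIM protein, had 0.173, 6.00 and 39.6 CPM in slow-rich libraries, against 0, 0.966 and 22.4 CPM in fast-rich libraries (1.66 ± 1.02, and 2.96 without control replicate 28). MYL3, the slow essential light chain, had 1.23, 11.6 and 49.4 CPM in slow-rich libraries, against 0.122, 6.27 and 38.1 CPM in fast-rich libraries (1.05 ± 0.76). The groups overlapped over most of their range in both genes. MYH7B (0.61 ± 0.64) and carbonic anhydrase 3, CA3 (0.26 ± 0.35), had fold changes within 1 SE of 0, although limma voom put MYH7B at 1.85. CA3 was the member that turned negative (-0.10) without the 3 libraries of low assigned share.

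**Figure D3:**
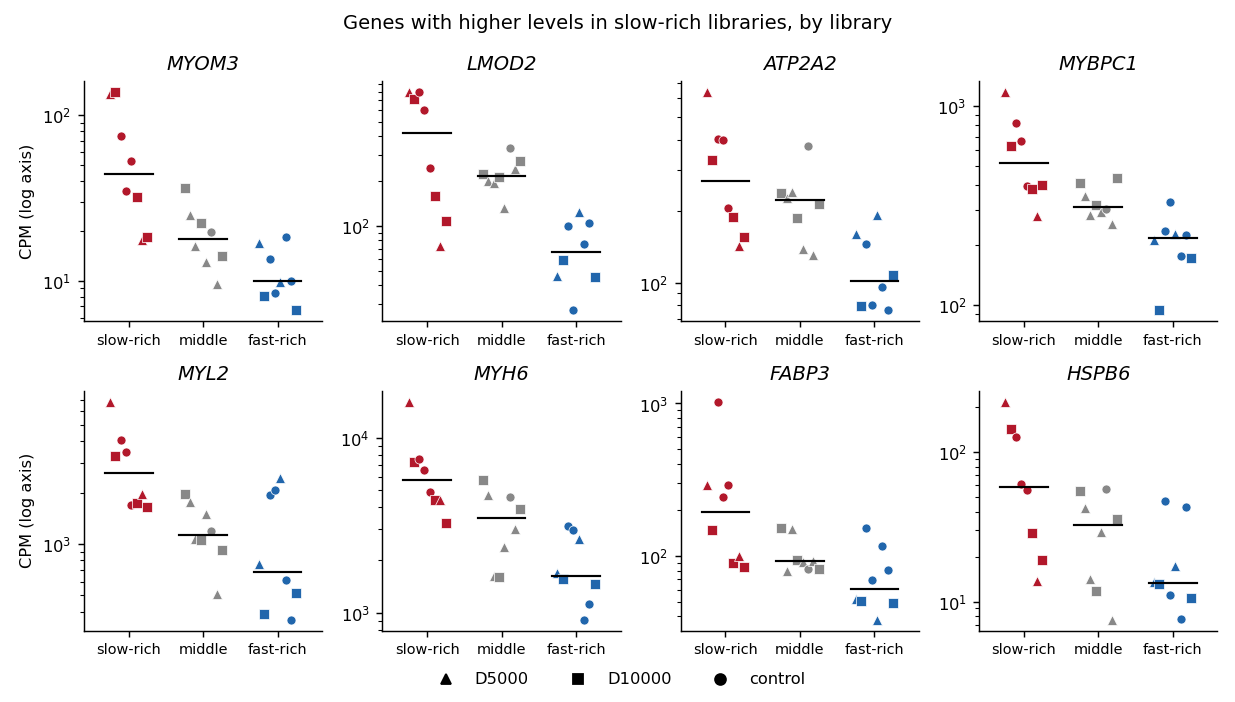
CPM (log axis) of 8 genes in each of the 24 ranked libraries, by group, with libraries ordered within a group from the highest troponin ratio on the left. Shapes give the diet and black lines the medians. In MYOM3 and LMOD2 the first slow-rich libraries stand highest (up to 138 and 797 CPM) and the last approach the fast-rich range, and MYH6 is the gene shown whose groups do not overlap.

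Of all genes tested, 2 had every slow-rich library above every fast-rich one (0.0198% of the genes tested) and 1 the opposite (0.00988%). The first was the identifier named MYH6 (ENSSSCG00000002029), a slow and cardiac myosin heavy chain, with 3247, 5699 and 16060 CPM in slow-rich libraries, against 914, 1626 and 3143 CPM in fast-rich libraries (log2 fold change 1.75 ± 0.44, adjusted p = 0.50). MYH6 and its neighbour MYH7, the myosin of slow skeletal fibres, are near-identical in mammals, and MYH7 matched no identifier, so reads of the 2 genes may be mixed in this value. MYH1, MYH2 and MYH4, the myosins of fast fibres, were likewise matched by no identifier and are not reported. LARP6, an RNA-binding protein, was low throughout. It had 1.45, 1.53 and 8.43 CPM in slow-rich libraries, against 0, 0.680 and 1.23 CPM in fast-rich libraries. LARP6 passed the filter on low counts through the slow-rich libraries alone, so its lack of overlap is a description only. NFE2L3, a stress-responsive transcription factor, was the gene lower without overlap, with 0, 2.07 and 3.88 CPM in slow-rich libraries, against 4.05, 4.56 and 10.6 CPM in fast-rich libraries. The last 2 were named because they fell in these small counts.

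Genes of fast fibres did not mirror the slow list. Of 20 fast-fibre symbols besides the troponins, 17 were tested: 8 were higher and 9 lower in slow-rich libraries, with a median log2 fold change of -0.07 and 0 of 17 at an unadjusted p under 0.05 in either direction. MYL11 (ENSSSCG00000007799), the fast regulatory light chain, had 4976, 10932 and 13813 CPM in slow-rich libraries, against 5132, 13558 and 31338 CPM in fast-rich libraries (-0.54 ± 0.40). Its lowest slow-rich value was that of D5000 replicate 24, and control replicate 28 gave the lowest fast-rich one. ACTN3, the alpha-actinin of fast fibres, had 1399, 2279 and 3100 CPM in slow-rich libraries, against 795, 2972 and 5110 CPM in fast-rich libraries (-0.19 ± 0.39). Each group held libraries with low and high ACTN3, but the 4 highest values were fast-rich.

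ATP2A1, the SERCA1 calcium pump of fast fibres, had 382, 1429 and 3898 CPM in slow-rich libraries, against 134, 529 and 4698 CPM in fast-rich libraries (log2 fold change -0.07 ± 0.71). Among the fast-rich libraries D10000 replicate 7 and control replicates 14 and 9 had 3734 CPM or more, and the other 5 had 579 CPM or less. MYLK2, the kinase of skeletal myosin light chain, had 12.9, 60.5 and 154 CPM in slow-rich libraries, against 6.16, 38.3 and 124 CPM in fast-rich libraries (0.30 ± 0.60), and the same 3 fast-rich libraries were its highest. The calcium buffer PVALB had 13.7, 89.8 and 314 CPM in slow-rich libraries, against 42.4, 66.8 and 74.9 CPM in fast-rich libraries (0.96 ± 0.49, and 0.52 without control replicate 16), so its slow-rich values reached both further down and further up. D5000 replicate 24 and D10000 replicate 13, the libraries with the 2 highest troponin ratios, had the lowest PVALB of the 16, and with adjustment for total gene counts its fold change was -0.11. The other members were the sarcomere genes TPM1 (-0.20 ± 0.48), MYL1 (0.08 ± 0.49), MYBPC2 (-0.09 ± 0.35), MYOM2 (0.30 ± 0.46), MYOZ1 (0.39 ± 0.46) and MYOZ3 (0.15 ± 0.45), the calcium-store genes CASQ1 (-0.98 ± 0.55) and JSRP1 (0.36 ± 0.36), and the enzymes PGAM2 (-0.33 ± 0.39), FBP2 (-0.22 ± 0.43), GPD1 (-0.11 ± 0.39) and AMPD1 (0.29 ± 0.44).

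This level picture of the fast genes changed with the fit, and the reason was not tested. With adjustment for the assigned share, 1 of 17 fast genes was higher and 16 lower (median -0.30), and with adjustment for total gene counts 0 were higher and 17 lower (median -0.70). Single members stayed without a call in each of these fits. Without the 3 libraries of low assigned share, 2 were higher and 15 lower (median -0.37). With diet as a covariate, 12 of 17 were higher (median 0.44), and limma voom gave 11 of 17 higher (median 0.27). The slow list had 10 or 11 of 11 genes higher under each of these settings, with medians from 1.12 to 1.85.

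**Figure D4:**
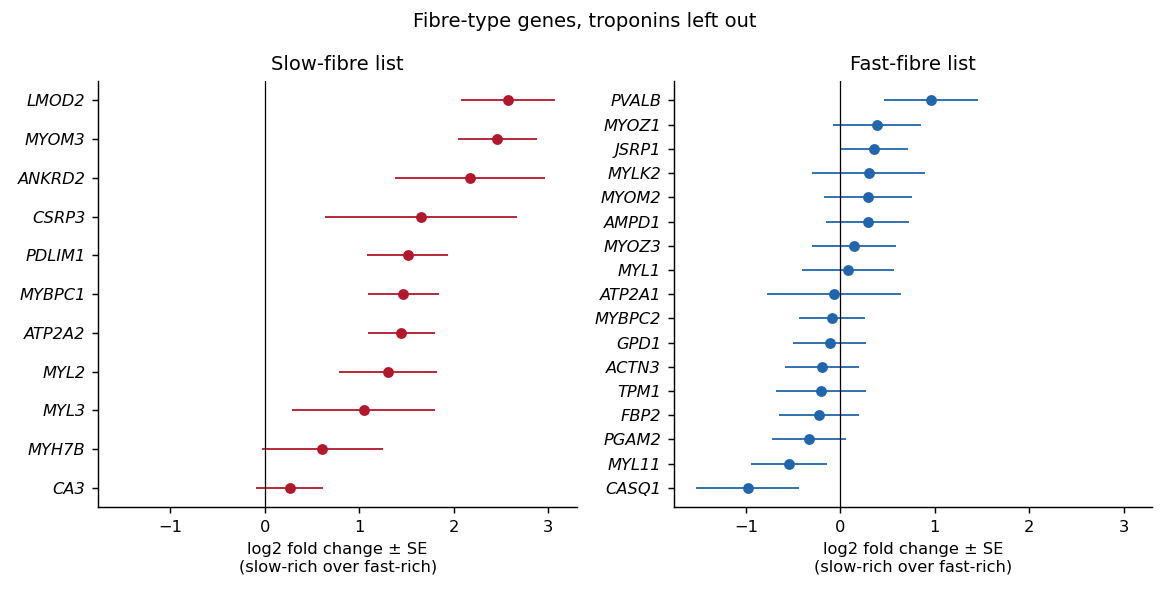
Log2 fold change (slow-rich over fast-rich, points) with its SE (bars) of the 11 slow-fibre genes on the left and the 17 fast-fibre genes on the right, troponins left out. The slow genes lie from 0.26 to 2.58, and the fast genes on both sides of 0.

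Across all 24 ranked libraries, 6 slow-fibre genes and 2 genes of fatty acid use were among those that followed the ratio as a continuous measure, and 0 genes of the respiratory chain or the citric acid cycle. In this fit a slope is the log2 change of a gene for each increase of the log2 ratio by 1. Its adjusted p fell under 0.05 for 19 genes with a positive slope (0.188% of the genes tested) and 1 with a negative slope (0.00988%). The 16 libraries of the group comparison are among these 24, so the fit sharpens that comparison and does not repeat it. Slow-fibre list members made up 6 of the 19: MYOM3 (slope 0.95 ± 0.10, SE over 24 libraries, adjusted p = 5.33e-07), LMOD2 (0.91 ± 0.14), ATP2A2 (0.55 ± 0.09), MYBPC1 (0.54 ± 0.10), PDLIM1 (0.68 ± 0.13) and ANKRD2 (1.01 ± 0.19). MYH6 had a slope of 0.66 ± 0.12. The fast-fibre list gave 0 of 17.

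The other called genes with a symbol were MYL6, MYL12A, FABP3, PLIN5, HSPB6, RCAN2 and MRPS6, the last a protein of the mitochondrial ribosome (slope 0.50 ± 0.10, named for its call). MYL6 (ENSSSCG00000039506) had 49.7, 172 and 2308 CPM in slow-rich libraries, against 8.81, 19.7 and 122 CPM in fast-rich libraries (log2 fold change 3.20 ± 0.87, slope 1.16 ± 0.14). The gene encodes the essential light chain of smooth-muscle and non-muscle myosin, and in the RefSeq pig assembly it lies next to MYL6B, whose light chain is found in slow skeletal muscle and which matched no identifier here. D5000 replicate 24 alone reached 2308 CPM of MYL6, against 311 CPM in the next library, and without it the log2 fold change was 1.82. MYL12A, a regulatory light chain of non-muscle myosin, had 193, 383 and 1446 CPM in slow-rich libraries, against 75.5, 164 and 383 CPM in fast-rich libraries (1.72 ± 0.48), and its highest libraries were D10000 replicate 13 and control replicate 16. A further 5 of the 19 had no symbol. Among them ENSSSCG00000032838 had 34.5, 117 and 386 CPM in slow-rich libraries, against 11.8, 21.9 and 55.5 CPM in fast-rich libraries (slope 0.88 ± 0.13). ENSSSCG00000006556 had 537, 986 and 3337 CPM in slow-rich libraries, against 330, 450 and 704 CPM in fast-rich libraries (0.62 ± 0.08). The negative slope was that of KCNS3, a modulatory subunit of potassium channels, with 3.81, 11.2 and 29.6 CPM in slow-rich libraries, against 9.78, 31.7 and 81.1 CPM in fast-rich libraries (slope -0.68 ± 0.15, adjusted p = 0.0456).

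D5000 replicate 24, whose ratio lies far above the rest, carried part of these calls. Without it 12 of the 19 positive slopes kept an adjusted p under 0.05 and 1 other gene had a negative one. The 12 included MYOM3, LMOD2, ATP2A2, PDLIM1, ANKRD2, FABP3, PLIN5, HSPB6 and MYL12A, and MYH6 (adjusted p = 0.066), MYBPC1 (0.066), MYL6 (0.12), RCAN2 (0.18) and MRPS6 (0.18) were no longer called. MYOM3, LMOD2, ATP2A2 and HSPB6 were called in all 24 fits that left out 1 library, and KCNS3 in 8 of them. With adjustment for the assigned share 19 of the 20 calls remained, and with total gene counts 15.

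In the 8 middle libraries, which the group comparison did not use, 10 of 11 slow-fibre genes had a positive slope on the ratio, against 50.5% of all genes. Their median levels lay below those of slow-rich and above those of fast-rich libraries for 9 of 11 slow-fibre genes. The same held for 1829 of all 10123 genes tested, and for 170 of the 243 genes higher at an unadjusted p under 0.05 in slow-rich libraries. For MYOM3 the middle median was 18.0 CPM and for LMOD2 218 CPM. No gene passed an adjusted p of 0.05 among these 8 libraries (smallest 0.71, edgeR), whose ratios differed little, and 665 had an unadjusted p under 0.05. Of the 243 genes higher at an unadjusted p under 0.05 in slow-rich libraries, 60.1% had a positive slope in the middle libraries, and of the 440 lower genes 75.2% had a negative one. The fast-fibre list had 8 of 17 positive slopes there. Lists with no tie to slow fibres also reached high shares in these 8 libraries, such as 21 of 24 glycolytic and 38 of 45 ribosomal protein genes, so the count of slow-fibre genes is a description only.

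Sarcomere genes shared by both fibre classes were mostly higher in slow-rich libraries, by less than the slow list. Of 20 tested, 17 were higher, with a median log2 fold change of 0.40, 4 of them at an unadjusted p under 0.05. ACTN2, the alpha-actinin of all fibres and the heart, had 287, 481 and 762 CPM in slow-rich libraries, against 109, 226 and 509 CPM in fast-rich libraries (1.01 ± 0.39). Filamin C, FLNC (1.08 ± 0.35), myotilin, MYOT (1.07 ± 0.44), both of the Z-disc, and the intermediate filament desmin, DES (1.08 ± 0.52), were the other 3. The median of the list was 0.05 with adjustment for the assigned share, with ACTN2 at 0.57, MYOT at 0.45, DES at 0.51 and FLNC at 1.12. Of 30 calcium-handling genes 16 were higher (median 0.04). Besides ATP2A2, the mitochondrial calcium uniporter MCU (0.94 ± 0.38) was higher and the calmodulin gene CALM2 (-0.85 ± 0.33) and ASPH (-0.78 ± 0.32), whose locus encodes the reticulum protein junctin, were lower at an unadjusted p under 0.05. With adjustment for the assigned share CALM2 stood at -0.24, ASPH at -0.16 and MCU at 0.65, and with adjustment for total gene counts CALM2 stood at -0.05.

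Among 48 tested regulators of fibre type, 23 were higher and 25 lower (median -0.01), with 7 higher and 0 lower at an unadjusted p under 0.05. RCAN2 (ENSSSCG00000001716), an inhibitor of calcineurin, the phosphatase that drives slow-fibre genes, had 8.33, 16.2 and 45.2 CPM in slow-rich libraries, against 4.05, 9.65 and 20.1 CPM in fast-rich libraries (log2 fold change 1.08 ± 0.34, slope 0.43 ± 0.09, adjusted p of the slope 0.0323). D5000 replicate 24, control replicate 23 and control replicate 16 alone exceeded the fast-rich range. Myogenin, MYOG (0.90 ± 0.33), and SIX4 (1.47 ± 0.56), known in mice for roles in myogenesis and fast-fibre programmes, were also higher at an unadjusted p under 0.05.

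Of 37 genes of fatty acid use tested, 23 were higher and 14 lower (median log2 fold change 0.35), 8 higher and 2 lower at an unadjusted p under 0.05. Over all genes tested 2.4% were higher and 4.35% lower at that p, so the share of lower members was near that of all genes. FABP3 (ENSSSCG00000036883), the fatty acid binding protein of heart and slow muscle, had 84.8, 195 and 1029 CPM in slow-rich libraries, against 37.98, 60.6 and 153 CPM in fast-rich libraries (1.88 ± 0.51, slope 0.80 ± 0.16, adjusted p of the slope 0.00825). Control replicate 16 stood highest at 1029 CPM, and without it the fold change of FABP3 was 1.10 and its slope was not called. PLIN5 (ENSSSCG00000013513), which ties lipid droplets to mitochondria, had 1.68, 11.98 and 36.5 CPM in slow-rich libraries, against 0, 2.90 and 12.5 CPM in fast-rich libraries (2.19 ± 0.60, slope 1.02 ± 0.19, adjusted p of the slope 0.00512), and it too lost its call without control replicate 16. Malonyl-CoA decarboxylase, MLYCD (1.36 ± 0.41), which lifts the brake on fatty acid entry into mitochondria, and the lipase PNPLA2 (1.22 ± 0.49) followed. With adjustment for total gene counts PLIN5 stood at 1.84, MLYCD at 0.71 and PNPLA2 at 0.13, and MLYCD stood at 0.60 with 12 against 12 libraries. The fat marker ADIPOQ ranged from 2.58 to 30.8 CPM in slow-rich and from 2.64 to 52.9 CPM in fast-rich libraries, and the summed adipocyte list from 1393 to 2126 CPM in slow-rich and from 1224 to 3172 CPM in fast-rich libraries.

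Respiratory chain and citric acid cycle genes had medians slightly above 0, but not once the assigned share was taken into account. Of 63 nuclear genes of the respiratory chain and ATP synthase, 47 were higher (median log2 fold change 0.32), 6 at an unadjusted p under 0.05 and 0 lower. NDUFA10, a subunit of complex I, had 54.5, 117 and 224 CPM in slow-rich libraries, against 32.3, 59.4 and 116 CPM in fast-rich libraries (0.95 ± 0.34), and the complex I genes NDUFS8 (0.81 ± 0.35), NDUFB6 (0.94 ± 0.42) and NDUFB5 (1.00 ± 0.45) followed. These 4 stood at 0.63, 0.45, 0.46 and 0.39 in this order with adjustment for the assigned share. Of 29 genes of pyruvate dehydrogenase and the citric acid cycle, 24 were higher (median 0.28), 4 higher and 1 lower at an unadjusted p under 0.05, among them PDHB (0.67 ± 0.28), the pyruvate carrier gene MPC2 (0.70 ± 0.30) and, lower, the kinase PDK3 (-0.67 ± 0.29). The 1 lower gene of 29 is a share near the 4.35% of all genes tested. With adjustment for the assigned share the medians were -0.07 for the respiratory chain and -0.03 for the citric acid cycle, and without the 3 libraries of low assigned share -0.06 and -0.03. Of the 13 genes encoded in mitochondrial DNA, 8 were higher (median 0.12), from ND6 (-0.80 ± 0.32) to CYTB (0.47 ± 0.40), and the median was -0.14 with adjustment for the assigned share.

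Glycolysis and glycogen genes had medians a little under 0, and the glycolysis median was 0.02 with diet as a covariate or with 12 against 12 libraries. Of 24 glycolytic genes 7 were higher and 17 lower (median log2 fold change -0.14), and 1, the lactate exporter SLC16A3, was lower at an unadjusted p under 0.05, a share of the list near the 4.35% of all genes. SLC16A3 had 6.53, 22.01 and 46.8 CPM in slow-rich libraries, against 18.6, 66.6 and 110 CPM in fast-rich libraries (-1.04 ± 0.40). The 4 libraries with the highest troponin ratio had the 4 lowest values of the 16, between 6.53 and 13.1 CPM, and the fold change was -1.03 with adjustment for the assigned share. PFKL had the opposite sign (1.06 ± 0.58, and 0.13 with adjustment for total gene counts). With adjustment for total gene counts the median of the list was -0.79. Of 23 glycogen genes 8 were higher and 15 lower (median -0.22), 2 of them at an unadjusted p under 0.05. PPP1R3A, which targets protein phosphatase 1 to glycogen in muscle, had 4.49, 9.88 and 30.9 CPM in slow-rich libraries, against 9.83, 17.0 and 183 CPM in fast-rich libraries (-1.38 ± 0.49). D10000 replicate 2 (183 CPM) and D5000 replicate 18 (70.0 CPM), both of low assigned share, were its highest. Without D10000 replicate 2 the fold change of PPP1R3A was -0.66, and with adjustment for the assigned share it was -0.48. PRKAA2, the muscle catalytic subunit of AMP-activated kinase, stood at -0.74 ± 0.35, at -0.45 without D10000 replicate 2 and at -0.29 with adjustment for the assigned share.

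**Figure D5:**
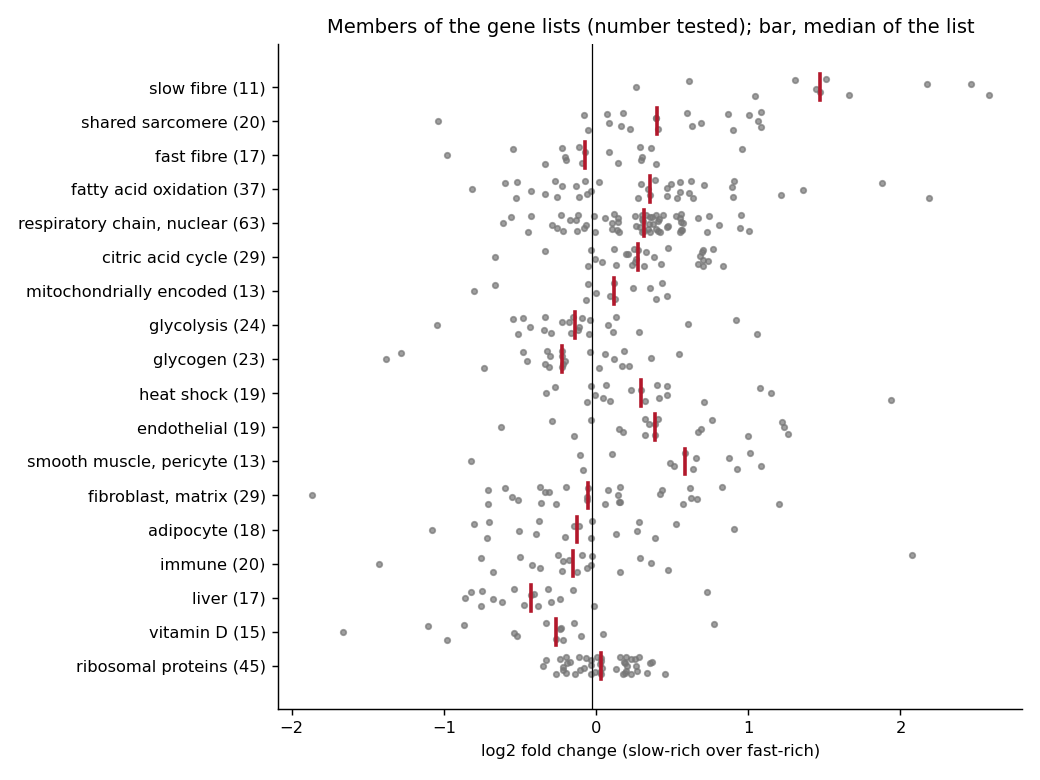
Log2 fold change (slow-rich over fast-rich) of each tested member (grey points) of 18 gene lists, with the number tested in brackets and the median as a red bar. The black line is the median of all genes tested (-0.03). The slow-fibre median of 1.47 lies furthest from it, and the fast-fibre median is -0.07.

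Of 19 heat-shock genes 14 were higher in slow-rich libraries (median log2 fold change 0.30), 2 of them at an unadjusted p under 0.05. Both encode small heat-shock proteins, chaperones that are abundant in muscle. HSPB6 (ENSSSCG00000023498) had 13.8, 58.9 and 218 CPM in slow-rich libraries, against 7.70, 13.4 and 47.4 CPM in fast-rich libraries (1.93 ± 0.54, slope 0.79 ± 0.13, adjusted p of the slope 0.0015). D5000 replicate 24, D10000 replicate 13 and control replicate 16 were highest. CRYAB, alpha-B-crystallin, had 1988, 4082 and 7784 CPM in slow-rich libraries, against 740, 1746 and 5282 CPM in fast-rich libraries (1.08 ± 0.46), with the same 3 libraries on top. HSPB1 stood at 1.15 ± 0.61. With adjustment for total gene counts the median of the list was -0.05, and HSPB6 stood at 1.57, CRYAB at 0.40 and HSPB1 at 0.08.

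No vessel gene passed an adjusted p of 0.05, and most had values above 0. Of 19 endothelial genes 15 were higher in slow-rich libraries (median log2 fold change 0.38), 5 higher and 1 lower at an unadjusted p under 0.05. Of 13 smooth muscle and pericyte genes 10 were higher (median 0.58), 3 at an unadjusted p under 0.05. These 3 were RGS5, MYH11 and DES, the last also counted among the shared sarcomere genes above. AQP1, the water channel of capillary endothelium, had 42.04, 63.3 and 95.6 CPM in slow-rich libraries, against 6.16, 30.3 and 51.6 CPM in fast-rich libraries (1.24 ± 0.41). The endothelial cadherin CDH5 (1.26 ± 0.49), ECSCR (1.22 ± 0.49) and caveolin 1, CAV1 (0.69 ± 0.31), also differed in this direction. The pericyte gene RGS5 had 25.9, 54.6 and 87.2 CPM in slow-rich libraries, against 14.5, 25.0 and 55.7 CPM in fast-rich libraries (1.01 ± 0.30), beside MYH11 (0.92 ± 0.36) and ACTA2 (0.51 ± 0.28). The summed endothelial list ran from 427 to 604 CPM in slow-rich and from 249 to 523 CPM in fast-rich libraries (exact permutation p = 0.0199 on log2 sums, n = 8 each, adjusted p = 0.129). The smooth muscle list without desmin, which muscle fibres also express, ran from 240.5 to 490 CPM in slow-rich and from 169 to 334 CPM in fast-rich libraries. With adjustment for total gene counts the medians were 0.22 for the endothelial and 0.28 for the smooth muscle list. AQP1 then stood at 0.55, CDH5 at 0.51, ECSCR at 0.52, CAV1 at 0.22, RGS5 at 0.57 and MYH11 at 0.47.

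Lists of markers of other cells and tissues had medians near or under 0, but these directions depended on the fit. Limma voom, which put the median of all genes at 0.12, gave 0.15 for fibroblast, 0.06 for adipocyte and 0.03 for immune genes. Of 29 fibroblast and matrix genes 14 were higher (median log2 fold change -0.06), 1 higher and 1 lower at an unadjusted p under 0.05. These are shares near those of all genes tested. The lower one was the fibrillin gene FBN1 at -1.86 ± 0.61 (-0.88 with adjustment for the assigned share). The higher one was MFAP5, with 3.70 to 16.7 CPM in slow-rich and 0 to 11.9 CPM in fast-rich libraries. Of 18 adipocyte genes 6 were higher (median -0.13), among them the lipase LPL (0.91 ± 0.39), while the lipid synthesis genes ACACA (-1.07 ± 0.39) and SCD (-0.80 ± 0.35) were lower at an unadjusted p under 0.05 (-0.48 and -0.28 with adjustment for the assigned share). Of 20 immune genes 5 were higher (median -0.15, highest 2.07), 1 higher and 2 lower at an unadjusted p under 0.05. The lower ones were the leukocyte genes PTPRC (-0.67 ± 0.29) and ITGAM (-1.43 ± 0.54). With adjustment for the assigned share these 2 stood at -0.22 and -1.14. The higher one was LYZ, at 36.6 CPM in D10000 replicate 13 and 32.2 CPM in control replicate 23. The other slow-rich libraries had at most 7.40 CPM of LYZ, and the fast-rich ones at most 7.66 CPM. The adipocyte and immune lists each held 1 gene higher and 2 lower at that p. Over all genes tested 2.4% were higher and 4.35% lower. Liver transcripts were higher for 1 of 17 genes (median -0.43), for example TAT (-0.86 ± 0.39) and AMBP (-0.82 ± 0.40), and the median was 0.12 with adjustment for the assigned share. Their sum ran from 5028 to 28723 CPM in slow-rich and from 4315 to 44978 CPM in fast-rich libraries (exact permutation p = 0.356 on log2 sums, n = 8 each), and their part in the other results was not tested beyond its use as a covariate. With it the slow list had a median of 1.34 and MYOM3 a log2 fold change of 2.36 (adjusted p = 0.0698).

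The remaining lists gave small medians, most of which changed sign under at least 1 alternative. These were 0.15 for 8 satellite cell genes, 0.34 for 10 genes of the neuromuscular junction and ion channels, -0.26 for 19 growth genes, 0.16 for 26 genes of atrophy and protein breakdown, and -0.48 for 15 immediate-early genes. The medians were -0.07 for 14 genes of creatine kinase and the purine cycle, 0.06 for 19 genes of oxygen, iron and antioxidant defence, 0.05 for 16 clock genes and 0.03 for 45 ribosomal protein genes. Lists with fewer tested genes were tendon (2, median -0.13), nerve (3, 0.29), lung and airway (3, -0.47) and red blood cells (4, -0.22). The superoxide dismutase of mitochondria, SOD2 (log2 fold change 0.82 ± 0.32), glutathione peroxidase GPX3 (0.86 ± 0.44), the ubiquitin ligase gene ASB2 (0.80 ± 0.37), the clock repressor CRY2 (1.07 ± 0.41) and NR1D1 (1.31 ± 0.74) were among the higher members, although with adjustment for total gene counts ASB2 stood at -0.09 and CRY2 at -0.16. The protease CAPN3 (-1.63 ± 0.63), the purine enzyme ADSS2 (-0.71 ± 0.31) and the early gene JUN (-1.32 ± 0.40) were among the lower, and with adjustment for the assigned share CAPN3 stood at -0.33, ADSS2 at -0.24 and JUN at -0.80. Of 15 vitamin D genes 2 were higher and 13 lower (median -0.26), 0 higher and 2 lower at an unadjusted p under 0.05. Over all genes tested 2.4% were higher and 4.35% lower at that p. One was RXRG, of the receptors that pair with the vitamin D receptor (-1.10 ± 0.49). The other was NCOA2, with 9.89 to 40.9 CPM in slow-rich and 9.02 to 105 CPM in fast-rich libraries. NCOA2 was highest in the 3 libraries of low assigned share. The 25-hydroxylase CYP2R1 stood at -1.67 ± 0.88 and was low (0 to 4.11 CPM in slow-rich and 0.489 to 11.6 CPM in fast-rich libraries). With adjustment for the assigned share the vitamin D median was -0.06.

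Outside the lists, the genes with the smallest p included carriers and enzymes as well as genes with no known tie to fibre type. Besides MYH6, MYL6 and MYL12A, the higher ones were SLC25A34, HOOK2, GALNT11, ASB15, DUS4L, ZNF385D, KLHL21, CLASP2 and ANKRD33B, with log2 fold changes from 0.94 to 1.85. SLC25A34, a mitochondrial carrier, had 50.1, 139 and 269 CPM in slow-rich libraries, against 24.7, 45.4 and 94.4 CPM in fast-rich libraries (1.62 ± 0.42). Control replicates 17, 16 and 23 and D10000 replicate 13 exceeded every fast-rich library in it. The middle libraries control replicate 3 (321 CPM) and D10000 replicate 1 (270 CPM) exceeded every slow-rich one, however. With 12 against 12 libraries the log2 fold change of SLC25A34 was 0.53. HOOK2, an adaptor of microtubule motors, stood at 1.54 ± 0.40 and the glycosyltransferase GALNT11 at 1.21 ± 0.35. The lower ones were LHFPL2, ARG2, SLC16A5, ADAMTS1, PPP1R12A, BIRC6, KCNS3, INO80D, LCOR, GCAT, CDK12 and DCBLD2, from -2.02 to -0.99. ARG2, the mitochondrial arginase, had 0.794, 5.55 and 9.75 CPM in slow-rich libraries, against 2.81, 27.1 and 32.3 CPM in fast-rich libraries (-1.98 ± 0.46), and 7 of 8 fast-rich libraries lay above every slow-rich one. LHFPL2 stood at -2.02 ± 0.46 and the monocarboxylate transporter gene SLC16A5 at -1.54 ± 0.37. None of these passed an adjusted p of 0.05 in edgeR. With adjustment for total gene counts ARG2 stood at -1.95, while LHFPL2 stood at -0.63, BIRC6 at -0.43, INO80D at -0.50, DCBLD2 at -0.66, KLHL21 at 0.54 and GALNT11 at 0.58. Over all genes, the split at an unadjusted p under 0.05 was 128 higher and 190 lower with adjustment for the assigned share, 625 higher and 300 lower in limma voom, and 219 higher and 546 lower with the relative log expression scaling.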

How the data were processed

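Muscle RNA of 25 pigs, 1 library each, was sequenced from the 3' end (QuantSeq 3' FWD, Lexogen, per the labels' protocols). The authors deposited raw counts per gene for each library. The submitters' processing notes name FastQC, while for the aligner, the counter and the genome build nothing is given in the sources used here. In each file 5 summary lines stayed out of totals and tests. Of 25880 identifiers 25879, those present in every file, were analysed, and 14856 have a symbol in the gene name table. Gene counts ranged from 3310507 to 15177976 per ranked library, and levels were not compared between genes.

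Slow-rich and fast-rich libraries were chosen by their measured troponin ratio, and the groups and gene lists were chosen with earlier results of these data known. The 6 troponin genes were left out of the fits. Counts were fitted in R 4.3.3 with edgeR 4.0.16 (TMM scaling, filterByExpr with a minimum count of 10 and minimum total of 15, robust quasi-likelihood test, Benjamini-Hochberg over all 10123 genes, threshold 0.05). SEs were the fitted log2 fold change over the square root of its F statistic, and CPM are counts scaled to library totals. Single measures were compared with exact two-sided permutation tests (scipy 1.17.1). Genes named were all tested slow-fibre and fast-fibre members, up to 4 of smallest p in each other list, and 12 higher and 12 lower genes of smallest p outside the lists, plus those called in the 24-library fit or named for a small count. That fit, with the log2 ratio as its term, and total gene counts as a covariate were examined further after seeing the data. Alternatives were DESeq2 1.42.0, limma 3.58.1 voom, other scalings, filters, covariates and group sizes, and each library left out. The code was tested on simulated data. Labels give 1 pig per library, and shared litters could not be modelled. No 2 libraries agreed within sampling noise. The smallest chi-square per degree of freedom between libraries was 34.3.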

Additional observations from a re-analysis of the deposited data

Results flagged for a closer look

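Of 102 groups of 8 values examined for a sample far from the others, 3 held one, where chance gives about 1 in 20 (5.1 here). The troponin ratio of D5000 replicate 24 was 1.53, against 0.0987 to 0.367 in the other slow-rich libraries, and its gap to the nearest was 0.813 of the group's range. These libraries were picked for the highest ratios, so a long upper end is part of the selection and the value is a description only. The summed tendon list of D5000 replicate 15 was 3.18 on the log2 scale, against 4.44 to 5.20 in the other slow-rich libraries, a gap of 0.624 of the range. ARG2 in control replicate 28 was 2.81 CPM, against 14.1 to 32.3 CPM in the other fast-rich libraries, a gap of 0.634 of the range on the log2(CPM + 1) scale.

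The library of animal 27 (D10000), left out of the ranking, held signals above the control libraries. Its adiponectin gene ADIPOQ stood at 1234 CPM, against 5.06 to 28.5 CPM in the 8 control libraries and 0.651 to 52.9 CPM in all 24 others. Its troponin ratio was 0.304, against 0.0414 to 0.289 in the control libraries, and would have ranked it among the slow-rich libraries. Both troponin classes were low in this library, however. TNNC1 stood at 111 CPM, TNNT1 at 164 CPM and TNNT3 at 521 CPM, under every fast-rich library (lowest 169, 232 and 4845 CPM). TNNI1 at 72.4 CPM lay within the fast-rich range. ACTA1 stood at 10029 CPM, against 54043 CPM in the lowest fast-rich library.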

How the results depend on the processing

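No paired analysis was possible because the diets and the slow-rich and fast-rich groups share no animal numbers. The single call of the group comparison depended on the processing. Genes called higher numbered 2 with no filter on low counts, 9 in DESeq2 (with 4 lower), 3 with diet as a covariate, 3 with all 24 libraries in 3 levels, 19 with the ratio as a continuous measure (with 1 lower), and 0 in limma voom, with adjustment for the assigned share, liver transcripts or total gene counts, with animal 27 ranked, and without libraries under 40% assigned. Leaving out 1 library gave 0 to 3 higher genes. In the 24-library fit, no filter gave 102 higher and 156 lower, DESeq2 23 and 16, and animal 27 kept 28 and 3. Lower calls there were 13 with the assigned share, 3 with liver transcripts or total gene counts, and 0 with voom, diet or a ratio from mean log2 values. Leaving out 1 library gave 12 to 21 higher and 0 to 2 lower. List medians that moved by more than their spread were, with adjustment for the assigned share, without libraries under 40% assigned and with total gene counts in turn, -0.0706, -0.0618 and -0.17 for the respiratory chain, -0.0315, -0.0287 and -0.0779 for the citric acid cycle, -0.50, -0.50 and -0.79 for glycolysis, and -0.26, -0.28 and -0.38 for ribosomal proteins. Total gene counts also gave -0.70 for fast-fibre, -0.0479 for heat-shock, -0.13 for atrophy and -0.33 for nerve genes. Calcium handling stood at 0.47 in voom and from -0.0546 to 0.49 with 1 library left out (0.49 without control replicate 14). Immediate-early genes stood at 0.24 with 12 against 12 libraries and nerve genes at -0.43 with no filter. With animal 27 ranked, endothelial, adipocyte and fibroblast medians were 0.95, 1.81 and 0.56. The causes were not tested. The other 1056 values stayed within the limit set for their kind. List medians moved by less than their spread, some across 0. Counts stayed at 0 or changed by no more than a set fold, and diet comparisons gained no call. MYOM3, the single gene called in the group comparison, kept its sign, and the signs of the 24-library calls were not compared between settings. Values of single genes lost a call 17 times, gained one 34 times and moved by more than their spread 43 times, for example ASB15 to 0.19 with the continuous ratio, LARP6 to 0.61 there, SIX4 to 2.66 in voom, and LPL to 3.79 with animal 27 ranked. The shallowest library, D10000 replicate 2, had 3310507 gene counts.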
